A study of Mus musculus with 2 samples.

Results

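Levels of 59 G protein-coupled receptor genes, out of 55487 genes counted, were examined in sorted pancreatic beta cells of mice that lacked an intact Myt transcription factor family in these cells by design. The 59 were taken by name and bind incretins, glucagon, somatostatin, fatty acids, amines, acetylcholine, purines, prostaglandins, other peptides, calcium, GABA, cannabinoids, thrombin-type proteases or lysophospholipids. RNA was sequenced from 2 libraries of 1 group, mutant beta cells of mice aged 2 months. The label gives the genotype as MytF/F; Myt2F/F; Myt3F/F; RipCre, that is, floxed alleles of 3 Myt genes with Cre under the rat insulin promoter, so recombination is driven in insulin-expressing cells. The labels give the cells as sorted endocrine cells of islets and do not name the sorting marker. The second library is labelled a duplicate with no word on whether it came from other mice. Control cells were not analysed here, so the values describe mutant cells and compare them with no other genotype. The study asked which genes depend on Myt factors in beta cells at normal blood glucose.

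The libraries held 50121771 counted reads (library 1) and 39003197 (library 2). Of 10 beta-cell markers, 10 reached 1 CPM (a count per 1000000 reads) in both libraries, with Ins2 at 103810 and 110908 CPM. That limit does not measure purity. Of 4 markers of pancreatic polypeptide (PP) cells, 3 reached it, with sums of 639 CPM in library 1 and 885 in library 2. Ppy alone made up 632 and 879 CPM of these. Of 9 ductal markers, 8 reached it, with sums of 1171 and 1472 CPM, and Spp1 was highest at 659 and 967 CPM. Epcam had 212 and 193 CPM and Krt7 had 164 and 193 CPM. Others on the list were low, with Krt19 at 2.17 and 4.23 CPM and Sox9 at 0.479 and 0.718 CPM. The sums therefore do not measure a content of ductal cells. The part of such cells in the receptor levels was not tested. The targeted genes were counted in both libraries, at 77.6 and 65.4 CPM for Myt1, 44.5 and 39.05 CPM for Myt1l and 72.7 and 56.5 CPM for St18. Counts over all exons do not check a deletion of some of them. Over the 20673 genes with 10 or more reads, the counts differed beyond sampling noise (chi-square statistic 592081 on 20672 degrees of freedom), so the libraries were kept as 2 samples. The libraries also stood apart in named gene groups. Of 19 acinar markers, 17 reached 1 CPM in both, and the list reached a summed 163 CPM in library 1, against 739 in library 2. Of 20 interferon gamma response genes, 15 did, with sums of 211 and 824 CPM. Both libraries are labelled as pooled from males and females, yet Xist, which females express, stood at 5.01 CPM in library 1, against 653 in library 2. Neither the acinar nor the interferon list had a member with 0 reads in both libraries.

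G protein-coupled receptors pass the presence of a hormone, nutrient or neurotransmitter to a heterotrimeric G protein. In beta cells, receptors coupled to Gs raise cyclic AMP and those coupled to Gq raise inositol phosphates and calcium, and both amplify glucose-stimulated insulin secretion. Receptors coupled to Gi or Go lower cyclic AMP and restrain secretion, as noradrenaline and somatostatin do. Levels of different genes are given in TPM (transcripts per 1000000), which divide reads by gene length, and means carry the SD of the 2 libraries (n = 2).

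A receptor counted as detected where each library gave it at least 1 CPM. This held for 37 of the 59 (62.7%), against 24.5% of all 55371 gene symbols in the files. The 59 are all protein-coding, while the symbols are of any gene type, with a median of 0.071 TPM. The shares are therefore not of like sets, and an excess of detection among receptors was not tested. The detected receptors had a median of 12.2 TPM, beside 14.8 TPM over all detected genes, and 16 of the 37 lay at or above that second median. Levels were uneven. The 10 highest receptors took 86.4% of the summed TPM of the 59 in library 1 and 86.5% in library 2, and Glp1r alone took 29.9% and 38.0%. In order, these 10 were Glp1r, Adra2a, Gcgr, Sstr3, Ffar2, Ffar1, Gipr, Casr, Ptger3 and Gpr119. Together the 59 took 0.341% of the reads of library 1 and 0.33% of those of library 2. In a bulk sample, fewer cells of a type and less RNA per cell cannot be told apart, and this applies to each level below.

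**Figure D1:**
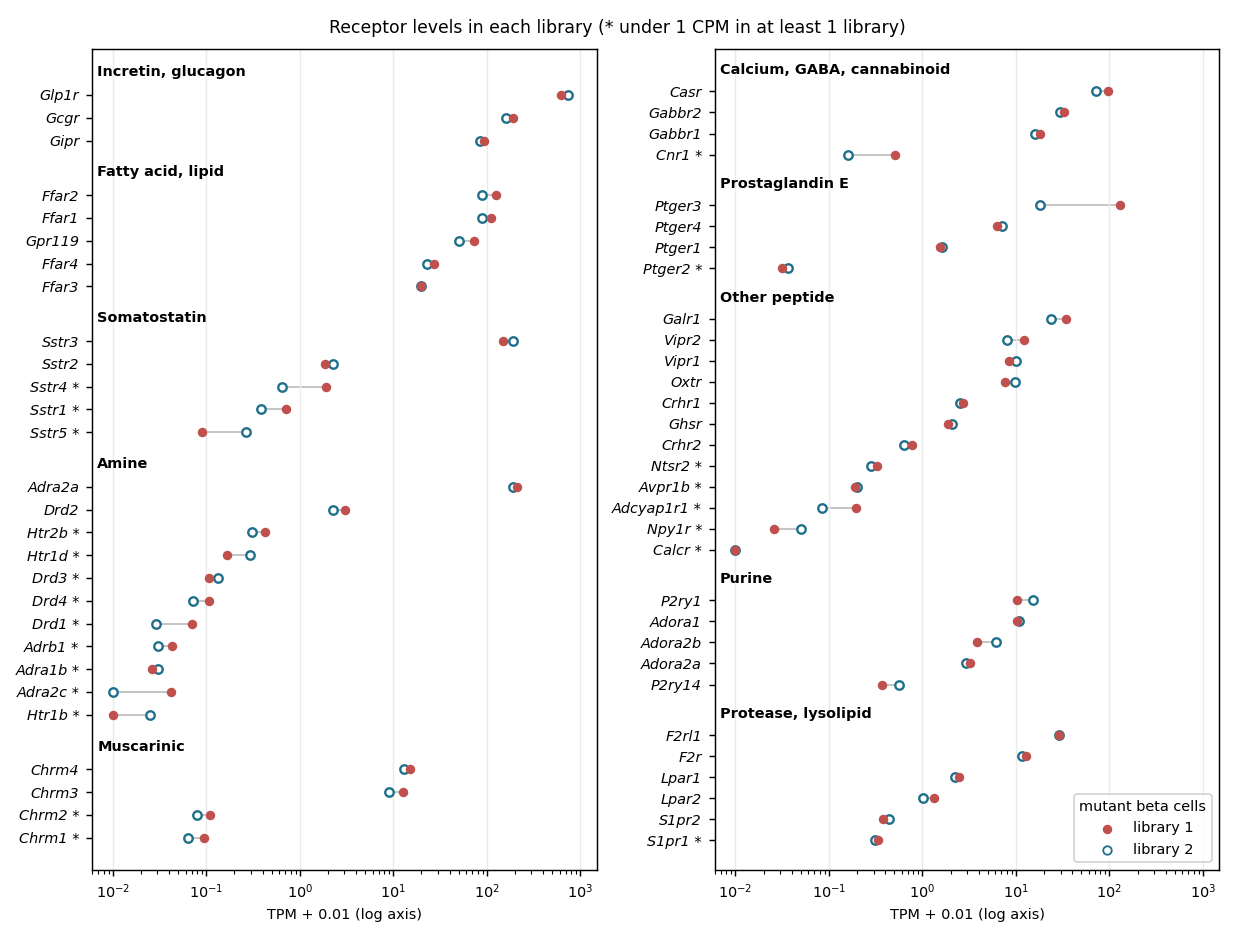
TPM of each of the 59 receptors in library 1 (filled points) and library 2 (open points) on a log axis with 0.01 added, grouped by ligand; an asterisk marks a receptor under 1 CPM in at least 1 library. Glp1r lies highest, at 624 and 740.0 TPM, and Ptger3 has the widest gap among the detected receptors, at 129 and 17.9 TPM.

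The glucagon-family receptors were the most abundant group. Glp1r, the receptor of the gut incretin GLP-1, stood at 624 TPM in library 1 and 740.0 TPM in library 2 (mean 682 ± 82.0). This mean is at or above that of 99.5% of the detected genes, and its range touched no other receptor. Gcgr, the glucagon receptor, had 192 and 162 TPM (177 ± 21.1), and Gipr, the receptor of the second incretin GIP, had 94.0 and 85.2 TPM (89.6 ± 6.20). Glucagon's receptor therefore stood between those of the incretins in both libraries. The TPM ratio of Gipr over Gcgr was 0.49 in library 1 and 0.526 in library 2, with 95% intervals for counting error of 0.475 to 0.507 and 0.506 to 0.548. The ratio of Glp1r over Gcgr was 3.26 (3.18 to 3.33) in library 1 and 4.57 (4.45 to 4.69) in library 2, so the libraries differed more than counting error alone. Glp1r (ENSMUSG00000024027) spans positions 30901817 to 30940791 of chromosome 17 (GRCm38, plus strand) in 13 merged exons of the GENCODE M21 annotation. Gcgr (ENSMUSG00000025127) spans 120530699 to 120538986 of chromosome 11, plus strand, and Gipr (ENSMUSG00000030406) spans 19156061 to 19166127 of chromosome 7, minus strand.

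The promoters of 3 receptors are shown because they span the findings. Glp1r is the highest receptor, Gcgr the highest whose promoter holds the element AAAGTT, and Ptger3 the one that differed most between the libraries. AAAGTT is a short element that Myt zinc fingers are known to bind. It was searched on both strands, as AAAGTT and AACTTT, in RefSeq promoters of GRCm38.p6 that run from 250 bases before to 50 after a transcription start. Capitals mark a match.
Glp1r promoter, chr17:30901617-30901916, plus strand: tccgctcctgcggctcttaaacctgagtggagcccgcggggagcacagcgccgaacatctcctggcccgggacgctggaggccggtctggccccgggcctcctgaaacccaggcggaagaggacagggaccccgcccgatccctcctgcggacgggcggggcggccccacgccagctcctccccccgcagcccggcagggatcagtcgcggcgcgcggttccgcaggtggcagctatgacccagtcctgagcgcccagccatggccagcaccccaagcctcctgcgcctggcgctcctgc
Gcgr promoter, chr11:120530477-120530776, plus strand: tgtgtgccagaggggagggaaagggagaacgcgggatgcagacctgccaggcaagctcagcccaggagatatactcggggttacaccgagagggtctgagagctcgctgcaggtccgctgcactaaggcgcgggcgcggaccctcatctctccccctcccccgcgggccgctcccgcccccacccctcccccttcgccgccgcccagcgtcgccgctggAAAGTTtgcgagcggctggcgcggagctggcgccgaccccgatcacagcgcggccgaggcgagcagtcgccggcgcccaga
Ptger3 promoter, chr3:157566626-157566925, plus strand: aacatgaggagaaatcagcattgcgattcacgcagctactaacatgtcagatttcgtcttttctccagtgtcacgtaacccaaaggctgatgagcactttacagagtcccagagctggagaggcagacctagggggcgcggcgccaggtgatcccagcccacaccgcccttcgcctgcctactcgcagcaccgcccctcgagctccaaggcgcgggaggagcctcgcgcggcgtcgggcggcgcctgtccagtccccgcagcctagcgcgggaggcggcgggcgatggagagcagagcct

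In Gcgr the match begins 31 bases before the start, and the windows of Glp1r and Ptger3 hold none. Promoters were matched for 49 of the 59 receptors. Of their 65 promoters, 8 (12.3%) held the element, against 14.1% of all 32851 promoters of the same length. Counted by gene, this was 8 of 49 receptors (16.3%), against 15.9% of all genes in the table, so the share among the receptors lay near the background. The 8 were Gcgr, Ffar2, Ptger4, Sstr4, P2ry14, Htr2b, Cnr1 and Adra1b. They ran from Gcgr, at rank 3 of the 59, to Adra1b with 1 read in each library. A match of letters is a description and not a binding site.

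All 5 receptors for fatty acids and related lipids were detected. Ffar2, a receptor for short-chain fatty acids such as acetate, had 124 TPM in library 1 and 89.6 TPM in library 2 (107 ± 24.4). Ffar1, a Gq-coupled receptor for long-chain fatty acids known to potentiate insulin secretion, had 109 and 88.0 TPM (98.8 ± 15.2). Gpr119, a Gs-coupled receptor for oleoylethanolamide and related lipids, had 72.8 and 50.1 TPM (61.5 ± 16.1). These 3 were each lower in library 2, and the ranges of Ffar1 and Ffar2 overlapped. Ffar4, the other long-chain fatty acid receptor, had 26.9 and 22.8 TPM (24.9 ± 2.89), and Ffar3, the other short-chain receptor, had 19.7 TPM in each library. Ffar1 exceeded Ffar4 4.07-fold (3.76 to 4.40) in library 1 and 3.86-fold (3.50 to 4.25) in library 2, with a mean log2 ratio of 1.99 ± 0.05. Ffar1 exceeded Gpr119 1.503-fold (1.44 to 1.57) and 1.76-fold (1.66 to 1.86). Ffar2 (30818348 to 30823775), Ffar3 (30854330 to 30856178) and Ffar1 (30857390 to 30861564) are neighbours on the minus strand of chromosome 7 and share no exon bases.

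Somatostatin receptors were represented mostly by Sstr3, a Gi-coupled receptor known to reside in primary cilia. It had 149.8 TPM in library 1 and 189 TPM in library 2 (169 ± 27.7), and its range overlapped those of Gcgr and Adra2a. Sstr2, the main somatostatin receptor of mouse alpha cells, had 1.85 and 2.28 TPM (2.06 ± 0.31). Of 10 alpha-cell markers, 9 were detected and none had 0 reads in both libraries. Their summed level was 2010.6 CPM in library 1, against 1625 in library 2, and their part in the Sstr2 level was not tested. Sstr4, Sstr1 and Sstr5 were under 1 CPM in both libraries, with 0.978 and 0.333 CPM, 0.519 and 0.282 CPM, and 0.0798 and 0.256 CPM. Sstr3 exceeded Sstr2 81.1-fold (64.3 to 104) in library 1 and 82.9-fold (65.6 to 106) in library 2, a mean log2 ratio of 6.36 ± 0.02. The ratios to the scarcer Sstr1 were 214 (146 to 328) and 503.6 (281 to 1009), and those to Sstr5 were 1862 (727 to 6834) and 740 (402 to 1543). These last rest on 4 reads of Sstr5 in library 1 and 10 in library 2.

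Of 11 amine receptors, 2 were detected. Adra2a, the Gi-coupled adrenoceptor through which noradrenaline inhibits insulin release, had 209 TPM in library 1 and 189 TPM in library 2 (199 ± 14.5), second in mean level of the 59. Its relative Adra2c had 2 reads and 0 reads. Adra2a exceeded Adra2c 6559-fold in library 1, with an interval of 1815 to 54162 that covers counting error, and at least 3105-fold in library 2 against the limit of 3 reads per library that a count of 0 allows. The exact 95% interval of that second ratio, which allows more reads, starts at 2525. Drd2, a Gi-coupled dopamine receptor, had 3.02 and 2.25 TPM (2.63 ± 0.55), and exceeded Drd4 31.0-fold (13.9 to 85.8) and 36.3-fold (11.99 to 179.6). Htr2b, a serotonin receptor known to rise in mouse islets in pregnancy, had 0.319 and 0.231 CPM. Htr1d had 0.18 and 0.333 CPM, and Htr1b had 0 reads in library 1 and 1 read in library 2. The others, Drd1, Drd3, Drd4, Adrb1 and Adra1b, had at most 6 reads in either library.

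Of the muscarinic acetylcholine receptors, 2 were detected, and Chrm4 was the higher per length. Chrm4, coupled to Gi, had 15.0 and 13.1 TPM (14.1 ± 1.29), and Chrm3, coupled to Gq and known to mediate the cholinergic boost of insulin secretion, had 12.7 and 9.02 TPM (10.9 ± 2.61). The TPM ratio of Chrm3 over Chrm4 was 0.849 (0.759 to 0.952) in library 1 and 0.687 (0.598 to 0.791) in library 2. Per read, without length scaling, the order turned, since Chrm3 had 28.8 and 20.7 CPM and Chrm4 had 7.82 and 6.95 CPM. Chrm1 and Chrm2 had between 5 and 11 reads in a library.

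Among receptors for calcium, GABA and cannabinoids, Casr was highest. Casr, the extracellular calcium-sensing receptor, had 96.3 TPM in library 1 and 71.5 TPM in library 2 (83.9 ± 17.5). The subunits of the GABA-B receptor, which works as a heterodimer, were both detected. Gabbr2 had 32.6 and 29.9 TPM (31.2 ± 1.91), and Gabbr1, the ligand-binding subunit, had 18.1 and 16.2 TPM (17.1 ± 1.38). The ratio of Gabbr1 over Gabbr2 was 0.557 (0.53 to 0.585) and 0.542 (0.51 to 0.575), a mean log2 ratio of −0.86 ± 0.03. Cnr1, the Gi-coupled cannabinoid receptor, had 58 reads in library 1 and 14 in library 2, or 1.16 and 0.359 CPM, and did not reach 1 CPM in both.

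Of the 4 receptors for prostaglandin E2, Ptger3 was highest and had the least stable level. Ptger3, which couples to Gi and lowers cyclic AMP, had 129 TPM in library 1 and 17.9 TPM in library 2 (73.2 ± 78.3). It stood at rank 5 of the 59 in library 1 and at rank 15 in library 2. Ptger4, coupled to Gs, had 6.28 and 7.12 TPM (6.70 ± 0.59), and its exons overlap other genes on the opposite strand over 16.5% of their length. Ptger3 exceeded Ptger4 20.5-fold (19.02 to 22.04) in library 1 and 2.51-fold (2.29 to 2.76) in library 2. Ptger1 was detected. Ptger2 had 2 reads in each library.

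Receptors for other peptides were mostly modest. Galr1, the Gi-coupled receptor of the inhibitory peptide galanin, led them with 34.3 TPM in library 1 and 23.5 TPM in library 2 (28.9 ± 7.60). Vipr2 had 12.1 and 7.92 TPM (9.998 ± 2.95), and Vipr1 had 8.43 and 10.04 TPM (9.24 ± 1.13). Both are Gs-coupled receptors of VIP and PACAP, and their order turned between the libraries. The ratio of Vipr1 over Vipr2 was 0.698 (0.637 to 0.765) in library 1 and 1.27 (1.13 to 1.42) in library 2. The PACAP-preferring receptor Adcyap1r1 had 22 reads and 7 reads. Vipr1 exceeded it 46.0-fold (30.2 to 73.8) and 136-fold (65.5 to 338). Oxtr, the oxytocin receptor, had 7.54 and 9.82 TPM (8.68 ± 1.62).

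Corticotropin-family receptors were low. Crhr1 had 2.73 and 2.53 TPM (2.63 ± 0.14), and Crhr2, the main receptor of urocortins, had 0.763 and 0.628 TPM (0.695 ± 0.096). Crhr1 exceeded Crhr2 3.57-fold (2.65 to 4.86) in library 1 and 4.02-fold (2.79 to 5.87) in library 2. Ghsr, the ghrelin receptor, is known in the islet from delta cells and had 1.85 and 2.08 TPM (1.96 ± 0.16). Of 7 delta-cell markers, Ghsr among them, 6 reached 1 CPM in both libraries and none had 0 reads in both. Summed, they reached 1689 CPM in library 1, against 1273 in library 2, and the part of delta cells in the Ghsr level was not tested. Sst alone made up 1515 CPM of this sum in library 1 and 1100.2 CPM in library 2, while Lepr was lower in library 1, with 6.92 and 23.4 CPM and a log2 ratio of library 1 over library 2 of −1.75. Avpr1b and Ntsr2, receptors of vasopressin and neurotensin, lay between 0.259 and 0.359 CPM. Npy1r, which binds neuropeptide Y and peptide YY, had 1 read in library 1 and 2 in library 2. Calcr, which with RAMP proteins forms the receptors of amylin, had 0 reads in both libraries, which allows up to 0.0599 CPM in library 1, and up to 0.0769 in library 2.

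All 5 purine receptors were detected, at modest levels. P2ry1, a Gq-coupled ADP receptor, had 10.3 TPM in library 1 and 15.4 TPM in library 2 (12.8 ± 3.60). Adora1, a Gi-coupled adenosine receptor, had 10.2 and 10.6 TPM (10.4 ± 0.32). Exons of these genes overlap opposite-strand genes over 23.1% and 20.1% of their length, so their levels carry that uncertainty. The Gs-coupled adenosine receptors were lower. Adora2b had 3.84 and 6.13 TPM (4.99 ± 1.62), and Adora2a had 3.20 and 2.90 TPM (3.05 ± 0.21). The ratio of Adora1 over Adora2a was 3.19 (2.72 to 3.76) in library 1 and 3.68 (3.05 to 4.46) in library 2. The ratio of Adora2a over Adora2b was 0.831 (0.659 to 1.05) and 0.472 (0.371 to 0.6), and the first of these intervals includes equality. P2ry14, a UDP-glucose receptor, had 0.358 and 0.549 TPM, and P2ry1 exceeded it 28.7-fold (22.6 to 37.1) and 28.0-fold (22.5 to 35.3).

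Receptors for proteases and lysophospholipids ran from F2rl1 down to S1pr1. F2rl1, which trypsin-like proteases activate, had 28.8 TPM in library 1 and 28.6 TPM in library 2 (28.7 ± 0.17), one of the closest agreements among the 59. These cells had been released from islets with trypsin, and cells released otherwise were not analysed here. F2r, the thrombin receptor, had 12.9 and 11.5 TPM (12.2 ± 0.98), and the ratio of F2r over F2rl1 was 0.449 (0.411 to 0.49) and 0.404 (0.364 to 0.448). Lpar1 had 2.43 and 2.25 TPM and Lpar2 had 1.31 and 1.01 TPM, with ratios of Lpar1 over Lpar2 of 1.87 (1.498 to 2.33) and 2.23 (1.70 to 2.94). Both bind lysophosphatidic acid. S1pr1 and S1pr2 bind sphingosine 1-phosphate. They had 0.325 and 0.298 TPM, and 0.365 and 0.429 TPM, and the ratio of S1pr1 over S1pr2, at 0.889 (0.49 to 1.54) and 0.694 (0.346 to 1.2996), was not told from equality at this depth. S1pr1 is abundant in endothelium in general. Of 10 endothelial markers, 6 reached 1 CPM in both libraries, none had 0 reads in both, and their summed level was 32.6 CPM in library 1, against 24.2 in library 2. Their part in the S1pr1 level was not tested.

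Across the whole order of 37 detected receptors, 21 of the 36 neighbouring pairs had overlapping ranges and 15 did not. Glp1r stood clear of Adra2a. Adra2a, Gcgr and Sstr3 formed a run in which each range overlapped the next, clear of Ffar2 below. From Ffar2 to Gpr119, each of the neighbours overlapped, and Gpr119 stood clear of Gabbr2. Of the 23 receptor pairs with a detected member, 20 had intervals on the same side of 1 in both libraries. The exceptions were Vipr1 with Vipr2, Adora2a with Adora2b and S1pr1 with S1pr2.

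**Figure D2:**
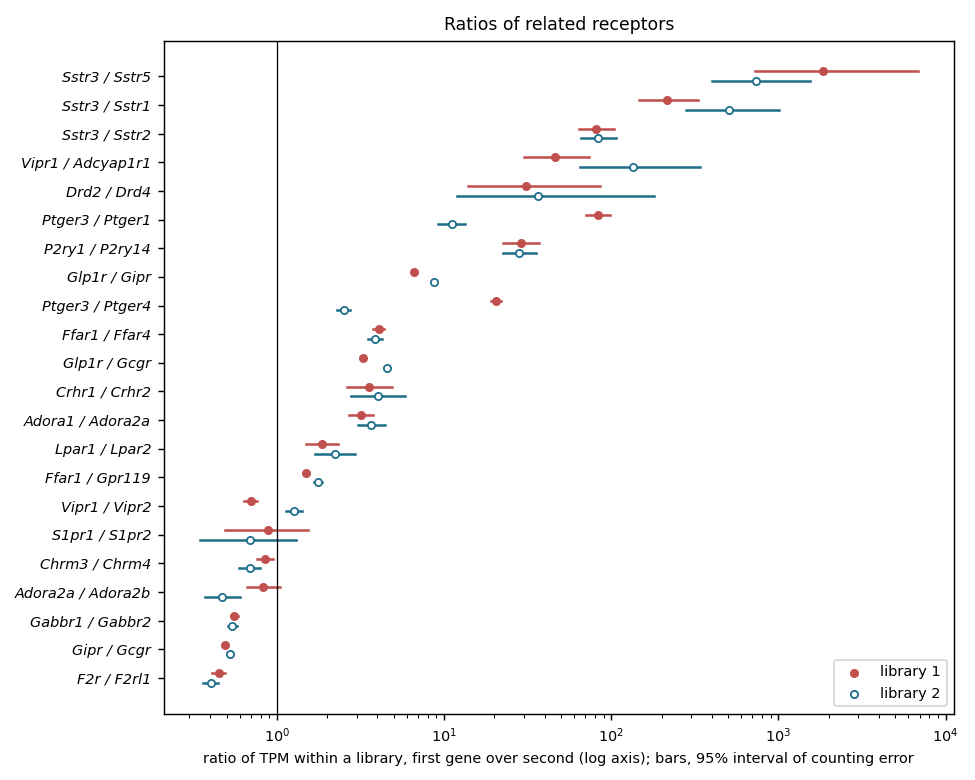
Ratio of TPM within a library, first gene over second, on a log axis, for library 1 (filled points) and library 2 (open points), with bars for the 95% interval of counting error; Adra2a over Adra2c is left out because Adra2c had 0 reads in library 2. The ratios of Sstr3 over Sstr1 and over Sstr5 lie farthest right, from 214 to 1862, and Vipr1 over Vipr2 lies at 0.698 and 1.27, on both sides of 1.

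Grouped by main G protein, the 16 Gs-coupled receptors summed to 1020.2 TPM in library 1 and 1075 TPM in library 2 (mean 1047 ± 38.5). The 24 Gi-coupled receptors summed to 627 and 516 TPM (571 ± 78.2), the 12 Gq-coupled receptors to 266 and 219 TPM (243 ± 33.0), and the 7 of mixed coupling to 171 and 135 TPM (153 ± 25.8). Gs exceeded Gi 1.63-fold in library 1 and 2.08-fold in library 2, a mean log2 ratio of 0.88 ± 0.25. This order rested on Glp1r. Without it, the remaining Gs-coupled receptors summed to 396 and 335 TPM, below the full Gi sum. The mean log2 ratio was then −0.64 ± 0.03, with the Gi class keeping its highest member. With Adra2a, the highest Gi-coupled receptor, also left out, the Gi sums were 417 and 327 TPM. Gs then lay below Gi in library 1 and above it in library 2. Without Ptger3, the ratios of Gs over Gi in the libraries were closer, at 2.05 and 2.16.

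**Figure D3:**
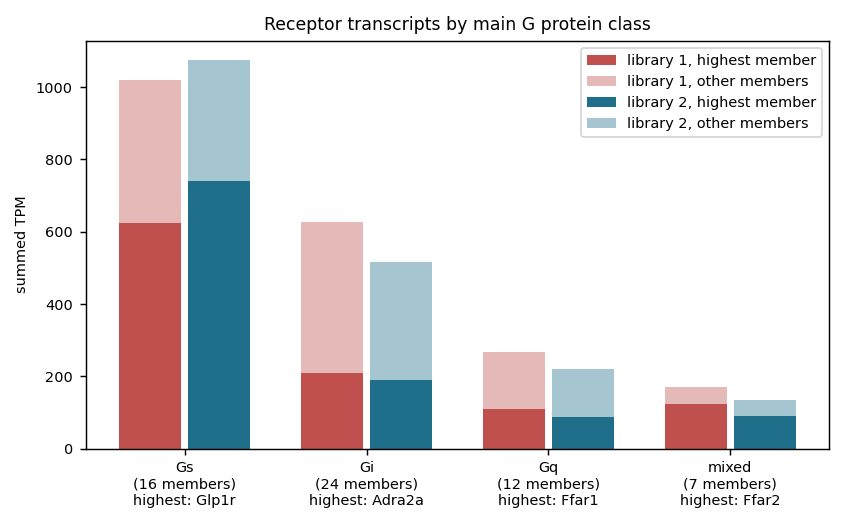
Summed TPM of the receptors of each main G protein class in library 1 and library 2 of mutant beta cells, with the highest member of the class in the dark part of each bar. Glp1r makes up 624 of 1020.2 TPM in the Gs class of library 1 and 740.0 of 1075 TPM in library 2.

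Genes of the transduction machinery downstream of the receptors were mostly detected. Of 13 G protein alpha subunit genes, 12 reached 1 CPM in both libraries, beside 24.5% of all symbols of any gene type. The list median was 42.1 TPM. Gnai2 was highest at 436 TPM in library 1 and 425 TPM in library 2 (430.4 ± 7.494), followed by Gnai3 at 149 and 171 TPM and the neuroendocrine subunit gene Gnao1 at 144 and 134 TPM. The lowest detected was Gnal at 0.699 and 0.75 TPM. The 5 alpha subunits of the Gi and Go family summed to 766 and 769 TPM and the 4 of the Gq family to 131 and 118 TPM. Gnas, which encodes the main Gs subunit, had 23.2 and 22.1 TPM. Its level is uncertain because 21.97% of its exon bases overlap genes on the opposite strand. Of 15 beta and gamma subunits, 9 were detected, led by Gng12 at 243 and 290.4 TPM, Gnb2 at 162 and 145 TPM and Gnb1 at 146 and 144 TPM, with Gnb4 the lowest detected at 0.654 and 0.539 TPM.

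Regulators of signal length were also present. Of 18 RGS genes, whose products speed the shut-off of G proteins, 13 were detected. Rgs16 had 185 TPM in library 1 and 103 TPM in library 2 (144 ± 58.1), Rgs11 had 66.5 and 57.7 TPM and Rgs4 had 66.8 and 43.6 TPM, with Rgs8 the lowest detected at 0.798 and 0.442 TPM. All 7 measured receptor kinases and arrestins, which desensitise receptors, were detected. Grk2 led with 69.5 and 63.1 TPM and Grk3 followed with 58.5 and 59.2 TPM. Arrb2 had 29.7 and 23.2 TPM and Arrb1 was lowest at 0.777 and 0.706 TPM. Of the 3 RAMP genes, Ramp2 had 4.53 and 4.44 TPM, Ramp1 had 1.78 and 1.66 TPM and Ramp3 was under 1 CPM, while Calcr had 0 reads.

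**Figure D4:**
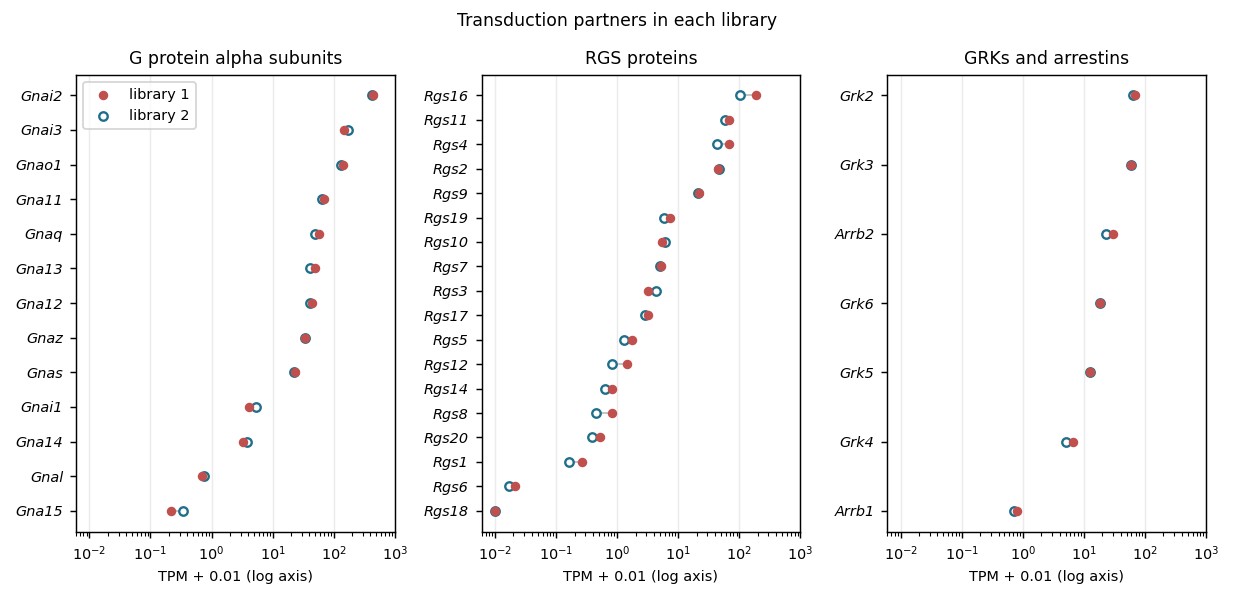
TPM of G protein alpha subunits, RGS proteins, and receptor kinases with arrestins in library 1 (filled points) and library 2 (open points), on a log axis with 0.01 added. Gnai2 lies highest among the alpha subunits at 436 and 425 TPM, and Rgs16 among the RGS genes at 185 and 103 TPM.

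Of 21 genes that encode peptides of the families that these receptors bind, 6 were detected in both libraries. They were Iapp, Sst and Ppy, which were highest at 36975 and 38292 TPM, 5788 and 4155 TPM, and 3480 and 4786 TPM, then Pyy, Gcg and, lowest, Ucn3 at 443 and 546 TPM. Gcg, Sst and Ppy are also on the alpha-, delta- and PP-cell marker lists, and the part of those cells in these levels was not tested. The receptor of Ucn3, Crhr2, lay at 0.763 and 0.628 TPM. Vip, a ligand of Vipr1 and Vipr2, had 117 reads in library 1 and 0 in library 2, at least 30.3-fold higher in library 1 against the limit of 3 reads in library 2. Crh, Calcb and Nts had 0 reads in both libraries.

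Differences between the libraries were tested for each gene with an exact two-sided binomial test of its reads against the library totals, adjusted by Benjamini-Hochberg over all 20673 genes with 10 or more reads. The test compares these libraries and not conditions, and a gene was called at an adjusted p under 0.05 and a 2-fold ratio. Of the 59 receptors, 49 could be tested and 3 were called (6.12%), against 4.31% of all genes tested, which is near that background. All 3 were higher in library 1, a direction in which 2.4% of all genes were called. The tested receptors had a median log2 ratio of library 1 over library 2 of 0.13, beside 0.04 over all genes tested. At any fold, 24 of the 49 passed the exact binomial test after adjustment (49.0%), against 32.4% of all genes. Of these, 16 were higher and 8 lower in library 1. The 37 detected receptors had a median absolute log2 ratio of 0.26, larger than the 0.14 over all detected genes, and 32 of them lay within 1.5-fold.

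Ptger3 differed most. It had 13305 reads in library 1 and 1458 in library 2, or 265 and 37.4 CPM, a ratio of 7.10 (95% interval 6.73 to 7.501) and a log2 ratio of 2.83. Its adjusted p in the exact binomial test was at most 4.1e-298, the smallest value that the computation holds after adjustment. It was also the 1 receptor that passed edgeR's exact test with the common dispersion of the libraries, at an adjusted p of 1.2e-09, where 1.02% of all genes passed. Ptger3 (ENSMUSG00000040016) spans 157566892 to 157645888 of chromosome 3, plus strand, and its 4 merged exons overlap no other gene. None of the 13 tested genes within 1 Mb of it was called, and their log2 ratios ran from −0.61 to 0.78. Over all genes tested 4.31% were called, and 13 genes are too few to be told from that share. The Gs-coupled Ptger4 had a log2 ratio of −0.20, in the other direction. The acinar and interferon lists were lower in library 1, with log2 ratios of their sums of −2.18 and −1.97, and their part in the Ptger3 difference was not tested. Xist was also lower and the Y-linked genes higher in library 1, and the part of sex in that difference was not tested.

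The other called receptors were scarce. Cnr1 had a log2 ratio of 1.65 (0.83 to 2.65) with 58 and 14 reads, at an adjusted p of 0.00014 in the exact binomial test. Sstr4 had 1.51 (0.65 to 2.56) with 49 and 13 reads, at an adjusted p of 0.0014 in the exact binomial test. With the libraries' common dispersion in edgeR's exact test, these became adjusted p values of 0.16 and 0.36. Among the 12 highest receptors, those other than Ptger3 had log2 ratios from −0.35 for Sstr3 to 0.53 for Galr1, all within 2-fold. Glp1r had a log2 ratio of −0.26 (−0.28 to −0.25), Sstr3 −0.35 (−0.39 to −0.32), Adra2a 0.13 (0.10 to 0.16) and Casr 0.41 (0.36 to 0.46). Of 50 tested genes in the 5 transduction lists, 0 were called, beside 4.31% of all genes tested. In edgeR's exact test 0 passed after adjustment, beside 1.02% of all genes. An unadjusted exact binomial p under 0.05 was met by 24, and the share of all genes that met it was not computed. At any fold, 19 of the 50 passed the exact binomial test after adjustment, beside the 32.4% of all genes. Of 11 ligand genes tested, 1 was called, Vip.

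**Figure D5:**
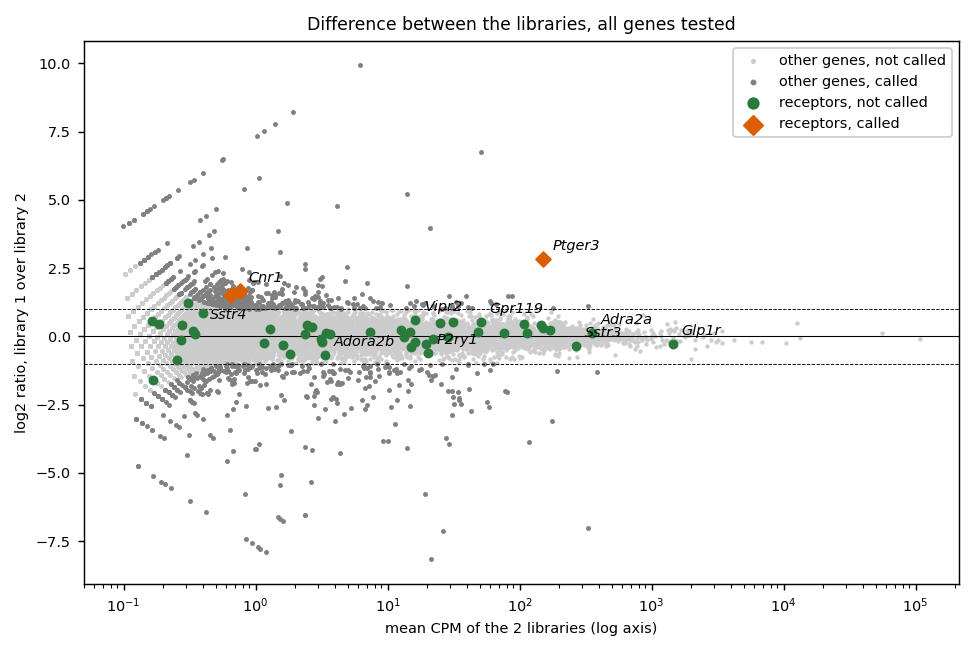
log2 ratio of library 1 over library 2 against mean CPM on a log axis for the 20673 genes tested, with receptors in green where not called and as orange diamonds where called; dashed lines mark a 2-fold ratio. Ptger3 lies alone among the abundant receptors at 2.83, and Cnr1 and Sstr4 lie at 1.65 and 1.51 below 1 CPM.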

How the data were processed

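Both libraries formed 1 group, taken from the genotype label. Read counts per gene were deposited by the authors as raw counts, with TPM values scaled by gene length and CPM values scaled to all counted reads, per the file headers. Tools in the submitters' processing notes are featureCounts 2.0.2, STAR 2.7.8a and cutadapt 2.10, with the build GRCm38.p6. Their settings, strand included, are not given in sources at hand, and the DNA library kit in the labels' protocols does not mark strand. The TPM lengths equal the merged exons of GENCODE M21 within 1% for 56 of 57 receptors with reads in library 1. For 109 symbols with more than 1 identifier, the one with most reads was kept.

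Intervals are exact Clopper-Pearson intervals at 95%. Intervals and the limit of 3 reads cover counting error only, because PCR copies cannot be told from separate molecules. The binomial test was run in Python 3.11.15 with scipy 1.17.1, and the ratio has 0.5 read added. It was checked on simulated counts that held sampling noise alone. The counts of these libraries differed beyond sampling noise, so that check does not cover its error rate here. A p-value here speaks of these 2 libraries. Whether their spread is technical or lies between the pools of mice was not tested. Without a second group, edgeR's quasi-likelihood test could not be run. edgeR 4.0.16 gave TMM scaling and an exact test with a common dispersion estimated from an intercept alone, and DESeq2 1.42.0 gave size factors. Values are given in full for the 12 highest receptors, those called and those in family pairs with a detected member, and of partner and ligand lists for the 3 highest, the lowest detected and those called. Receptors, lists and pairs were chosen with earlier results of these data known. The genes near Ptger3 were examined after its values were seen. In 10 receptors over 1% of 50-base words occur in other genes. The level of Ptger1 is not reported here.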

Additional observations from a re-analysis of the deposited data

How the results depend on the processing

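Leaving out library 1, then library 2, gave 37 and 38 detected receptors, summed receptor levels of 1945 and 2084 TPM, 22 and 21 receptor pairs with an interval off 1, and log2 ratios of Gs over Gi sums of 1.06 and 0.70. Detection at 5 CPM left 25 receptors and 36 partner and ligand genes, and detection at 1 TPM left 34 receptors. Scaling without the 10 highest genes raised the summed level to 3755 TPM, since those genes hold much of the total. Without Glp1r, chosen after the data were seen, and with all Gi-coupled receptors kept, the log2 ratio of Gs over Gi turned to −0.64. Ratios of CPM in place of TPM turned 3 pairs, Chrm3 over Chrm4 to a log2 ratio of 1.73, Adora2a over Adora2b to 0.057 and Vipr1 over Vipr2 to 0.29, since CPM is not scaled by gene length. Vipr1 over Vipr2 ranged from −0.52 to 0.34 in the single libraries. The same 3 receptors, Ptger3, Cnr1 and Sstr4, were called with TMM scaling, DESeq2 size factors, totals without the 10 highest genes, no filter, a filter of 50 reads and summed identifiers. In those settings 39 to 58 receptors were tested, and 2.39% to 4.31% of all genes were called. The count over all genes fell to 530 with the filter of 50 reads, which tests fewer genes. A fold limit of 1.5 gave 7 of 49 tested receptors and 1663 of 20673 genes (8.04%), adding Adora2b, P2ry1, P2ry14 and Vipr2. edgeR's exact test with common dispersion called 1 of 49 receptors, Ptger3, and 210 genes (1.02%). Of these genes 39.05% were higher in library 1, against 55.7% of those called in the binomial test. Of 382 receptor ratios recomputed, 376 kept their direction and their side of the threshold and 0 changed sign. No paired analysis was possible because the files hold 1 group. With 1 library left out, no test between libraries remains. Receptors under 10 reads could not be compared at this depth.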
